A study of Mus musculus with 13 samples.

Results

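The 55 collagen and laminin genes of the mouse were taken from a table of chromatin immunoprecipitation sequencing (ChIP-seq) reads. They are the gene bodies whose gene symbol is Col, a number, a and a number, or Lama, Lamb or Lamc followed by 1 to 5. All 55 were found among the 20689 gene bodies of the table. By the polymers their chains build, 11 were grouped as fibrillar, 17 as basement membrane (type IV collagen and laminins) and 27 as other chains.

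Collagens are trimers of alpha chains. Fibrillar collagens form the cross-banded fibres of skin, bone, tendon and cartilage. Type IV collagen and the laminins, which are trimers of 1 alpha, 1 beta and 1 gamma chain, form separate networks that make up the basement membrane. In the developing forebrain such a membrane lies under the pia and around blood vessels, and the end feet of neural stem cells attach to it. KAT7, also called HBO1, is a histone acetyltransferase, and acetylation of lysine 14 of histone H3 (H3K14ac) is a mark it places.

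The cells were neural stem and progenitor cells dissected at E14.5 from embryonic mouse cortices and ganglionic eminences, grown as neurospheres (floating spheres) and used at passage 5, day 3 of culture. Kat7 intact cells were Kat7+/+ NesCreT/+ and Kat7 deleted cells were Kat7lox/lox NesCreT/+, so both carried the NesCre transgene, in which the nestin driver expresses Cre recombinase in neural precursors. The labels describe 13 libraries: 4 H3K14ac libraries of intact and 3 of deleted cells, 3 KAT7 libraries of intact cells and 1 of deleted cells, and 1 IgG control library for each of the 2 antibodies. The table holds 1 merged column for each antibody, so intact and deleted cells, replicates and IgG could not be compared here, and which libraries were merged is not given in the sources used here.

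Levels are in RPKM, the read count scaled to the length of the region and the total reads of its column, with totals of 141734087 reads for H3K14ac and 134111848 for KAT7. The KAT7 to H3K14ac ratio is the KAT7 RPKM divided by the H3K14ac RPKM. It compares 2 antibodies and has no absolute meaning, so every ratio is set beside that of all genes. Each value is 1 merged measurement without replicates. No test between conditions was possible, and the 95% intervals (exact Poisson for levels, exact binomial for ratios) cover counting error only. With no input or IgG value to subtract, a level near that of all genes cannot be told apart from background.

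Of the 55 genes, 49 entered the class values: 10 fibrillar, 15 basement membrane and 24 other chains. They were compared with 15774 autosomal gene bodies that share no base with another gene body and have a mean of at least 0.1 RPKM. The 6 genes set apart are described at the end of the gene body results. For the cell type, 6 of 15 neural stem and progenitor markers stood in the class the table marks Top for expression, against 5.00% of all gene bodies. None of the 14 fibroblast and meningeal, 14 endothelial and mural, 7 microglial or 5 keratinocyte and epithelial markers in the table did. Of the collagen and laminin genes, 0 of 55 were marked Top, 2 (Col8a1 and Col13a1) were marked Bottom and 53 Other.

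Start site sequences are shown for genes at the ends of the distributions below: Col27a1, whose CpG island had the one ratio interval above the median of islands, Lama5, whose gene body had the one ratio interval above the median of gene bodies, and Lamb3, with the highest H3K14ac gene body level. Col3a1 is shown as a classical fibrillar gene without an island, though its sequence was not typical of these genes. The 71 bases between the divergent start sites of Col4a4 and Col4a3 stand for a basement membrane pair without an island. The sequences are from RefSeq (GRCm38.p6, the same assembly as the table's mm10) and are read 5′ to 3′ on the strand of the gene named first, ending at the base before its start. They are chr4:63215162-63215411 (plus strand), chr1:45311288-45311537 (plus), chr2:180225860-180226109 (minus), chr1:193301744-193301993 (plus) and chr1:82586850-82586920 (minus). No other gene body of the table overlaps them. Capitals mark motif matches on either strand. The GC box was searched for as GGGCGG. The CCAAT box was searched for by the letters of its name. The TATA box was searched for as TATAAA. No matches overlap in the stretches shown.

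Col27a1: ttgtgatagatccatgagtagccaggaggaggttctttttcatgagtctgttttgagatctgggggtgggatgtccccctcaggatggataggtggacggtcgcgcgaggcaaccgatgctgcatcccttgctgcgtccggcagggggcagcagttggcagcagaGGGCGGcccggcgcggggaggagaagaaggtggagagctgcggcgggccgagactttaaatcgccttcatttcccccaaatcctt
Col3a1: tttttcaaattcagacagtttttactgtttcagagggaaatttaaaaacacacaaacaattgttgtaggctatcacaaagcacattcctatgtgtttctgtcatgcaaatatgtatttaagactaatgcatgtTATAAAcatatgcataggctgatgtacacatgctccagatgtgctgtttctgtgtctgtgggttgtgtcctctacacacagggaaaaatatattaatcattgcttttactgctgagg
Lama5: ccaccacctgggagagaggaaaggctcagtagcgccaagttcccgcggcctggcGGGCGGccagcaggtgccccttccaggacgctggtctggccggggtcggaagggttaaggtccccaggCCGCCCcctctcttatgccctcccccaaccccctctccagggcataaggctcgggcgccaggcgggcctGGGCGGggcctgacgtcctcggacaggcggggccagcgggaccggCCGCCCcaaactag
Lamb3: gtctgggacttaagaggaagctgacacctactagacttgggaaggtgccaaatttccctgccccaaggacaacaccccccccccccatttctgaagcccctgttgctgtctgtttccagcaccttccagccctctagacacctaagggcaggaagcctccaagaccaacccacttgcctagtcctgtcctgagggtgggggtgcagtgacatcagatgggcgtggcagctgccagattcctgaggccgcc
Col4a4 to Col4a3 gap: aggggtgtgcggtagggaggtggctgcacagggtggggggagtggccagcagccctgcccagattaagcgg

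The Col27a1 stretch held 15 CG dinucleotides and 1 GC box match, and the Lama5 stretch 19 and 4. The Col3a1 stretch held no CG and 1 TATA box match, whose first base lies 117 bases before the start. The Lamb3 stretch and the Col4a4 to Col4a3 gap each held 2 CG dinucleotides and none of the 3 motifs. Of the 55 genes, 40 were in the promoter table and 37 lay within 50 bases of the start in the ChIP-seq table. Over windows from 250 bases before to 50 after the start, the 37 had a median GC content of 60.0%, against 52.7% for all 32851 promoters of the table. The sets are not alike: the 37 are 1 promoter per gene, the nearest to the start in the ChIP-seq table. The 32851 were limited neither to 1 per gene nor to genes of the ChIP-seq table. A GC box was matched in 22 of 37 (59.5%, against 35.7% of all promoters), a CCAAT box in 11 (29.7%, against 37.4%) and a TATA box in 4 (10.8%, against 13.6%). The 12 of these genes with a CpG island at the start had a median of 24 CG dinucleotides and a GC box in 11. The 25 without one had a median of 6 and a GC box in 11. Col3a1 was not typical of the classical fibrillar genes without an island, with 37.7% GC, no CG and no GC box in its window. Col11a1 and Col5a3, the other such genes among the 37, had 62.3% and 63.3% GC. They held 9 and 20 CG dinucleotides and 2 and 3 GC box matches.

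Over gene bodies, collagen and laminin genes had about the H3K14ac level of all genes and slightly less KAT7. The median H3K14ac level was 0.388 RPKM, against 0.381 for all gene bodies, and 21 of 49 genes lay under the latter. The median KAT7 level was 0.377 RPKM, against 0.399, and 39 of 49 lay under that. H3K14ac was the higher of the 2 values in 33 of the 49 genes, and in 5386 of all 15774. The median KAT7 to H3K14ac ratio was 0.974, against 1.05 for all gene bodies.

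The ratio interval lay wholly below the median of all gene bodies in 33 of 49 genes, where 21.2% of all gene bodies did, and wholly above it in 1, Lama5, where 19.2% did. Against a ratio of 1, the interval lay below in 21 genes (9.06% of all gene bodies) and above in 3, Lama5, Lamb1 and Col11a1 (34.2% of all gene bodies). The share called depends on length, because long genes hold more reads and have narrower intervals, and these genes were long: their median length was 113865 bases, against 17534.5 for all gene bodies. Over all gene bodies the median ratio was 1.06 below 10000 bases, 1.07 from there to 30000, 1.04 to 100000, 1.01 to 200000 and 0.992 beyond. The share of all gene bodies with an interval below the median rose with length, from 15.5% at 10000 to 30000 bases to 28.3%, 52.7% and 81.3% in the next bands. The collagen and laminin counts in those bands were 2 of 7, 9 of 14, 14 of 20 and 8 of 8, so part of the 33 goes with length. Against the median of their own band, 26 of 49 genes had an interval below, where 19.2% of all gene bodies did. Without intervals, 37 of 49 ratios lay under the band median, where 50% of all gene bodies do by construction. In the 20 genes of 100000 to 200000 bases the summed ratio was 0.981 (95% interval 0.973 to 0.988), against 1.01 for all 979 gene bodies of that length, and in the 8 longer ones 0.964 (0.957 to 0.971), against 0.993 for all 605. Under the 10th percentile of their band lay 15 of 49 genes, and over the 90th lay 1.

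**Figure D1:**
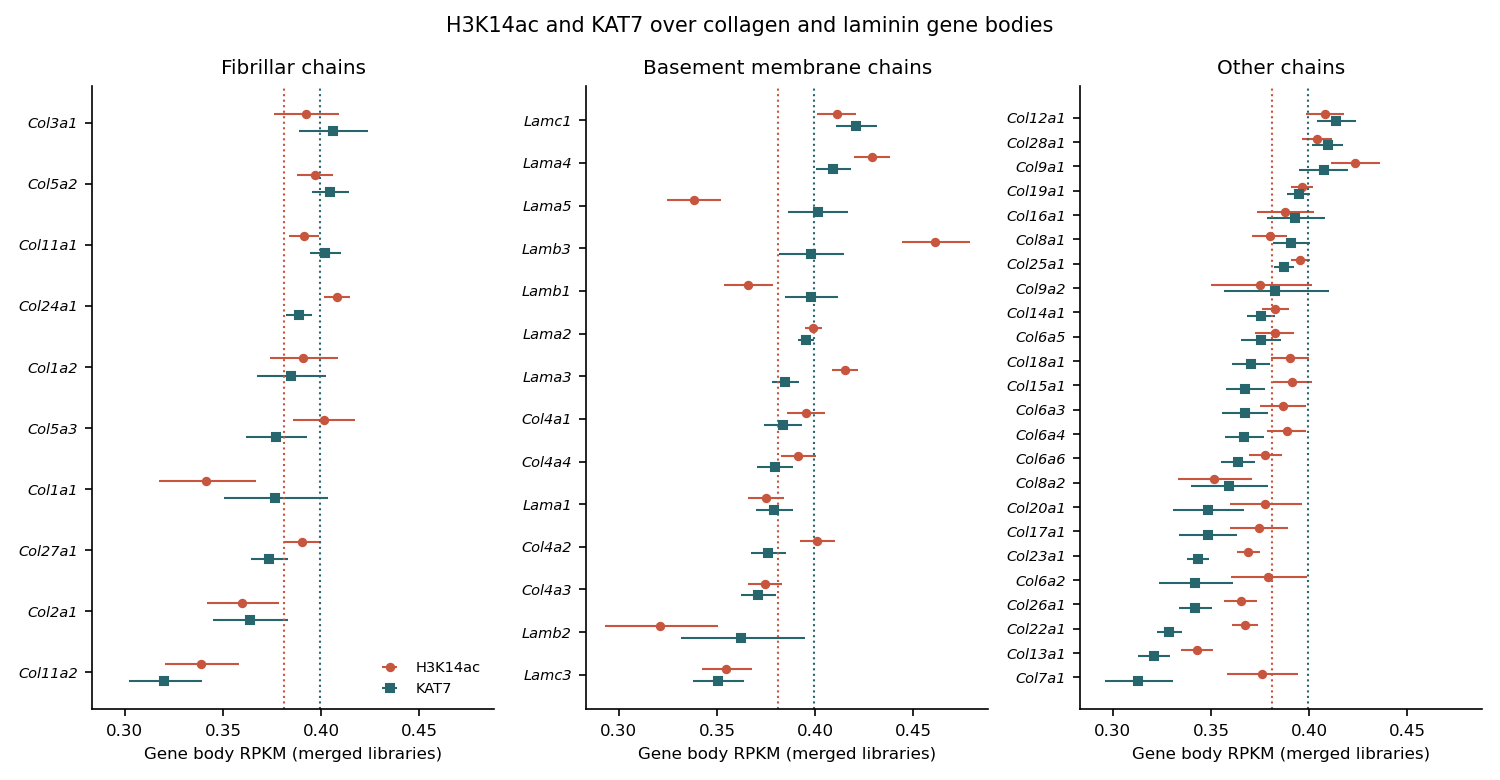
Gene body levels in the merged columns (x axis, RPKM) of collagen and laminin genes, in 3 panels by class and ordered by KAT7. Circles are H3K14ac and squares KAT7, bars are 95% counting intervals, and dotted lines are the medians of all gene bodies, 0.381 for H3K14ac and 0.399 for KAT7. Most squares lie left of the KAT7 line, and Lamb3, at 0.461, is the rightmost H3K14ac value.

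The 3 classes differed little. Summed KAT7 to H3K14ac ratios were 0.987 (0.975 to 1.00) for fibrillar, 0.981 (0.973 to 0.989) for basement membrane and 0.965 (0.959 to 0.972) for other chains, against 1.02 over all gene bodies. Intervals below the median of all gene bodies were found in 4 of 10 fibrillar, 10 of 15 basement membrane and 19 of 24 other chains, against 21.2% of all gene bodies. The fibrillar genes were the shorter ones, with a median of 41577 bases against 114404 and 110363, so these counts differ in length as well as class. By ratio alone, 7 of 10, 10 of 15 and 20 of 24 lay under the median of their length band. The level of basement membrane over fibrillar genes was 1.01-fold (0.9995 to 1.02) for H3K14ac and 1.00-fold (0.993 to 1.01) for KAT7. Both intervals held 1, so these classes could not be told apart in H3K14ac or KAT7. Other chains lay at 0.975-fold (0.965 to 0.985) of the fibrillar H3K14ac level and 0.954-fold (0.944 to 0.964) of the fibrillar KAT7 level. These intervals leave out the spread between genes, which was larger: within each class single genes differed by more than the classes did.

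The classical fibrillar chains had a ratio of 1.01 (0.995 to 1.03) over 8 genes. Col1a1 and Col1a2 encode type I collagen, the main collagen of bone and skin. Col1a1 had 0.342 RPKM H3K14ac and 0.376 KAT7, a ratio of 1.10 (0.996 to 1.22), the highest of the fibrillar genes. Col1a2 had 0.391 and 0.385, a ratio of 0.984 (0.923 to 1.05), so the ratio intervals of the 2 chains of this trimer overlapped. Col3a1, the chain of type III collagen, had 0.392 and 0.406, the highest KAT7 level of the class. Its neighbour Col5a2, whose product joins type V fibrils and which lies 24624 bases away in tail to tail orientation, had 0.397 and 0.405. Their ratios were 1.03 and 1.02.

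Col2a1, the type II chain of cartilage, had 0.360 RPKM H3K14ac and 0.364 KAT7. Of the type XI chains that join it in fibrils, Col11a1 had 0.391 and 0.402, and Col11a2 had 0.339 and 0.320, the lowest levels of the class for both antibodies. The Col11a2 ratio was 0.944 (0.871 to 1.02) and the Col11a1 ratio 1.03 (1.00 to 1.06). Col5a3, a type V chain, had 0.401 and 0.377, a ratio of 0.940 (0.888 to 0.994). The later-described fibrillar collagens Col24a1 and Col27a1 had ratios of 0.953 (0.931 to 0.975) and 0.957 (0.924 to 0.991), from H3K14ac levels of 0.408 and 0.390 and KAT7 levels of 0.389 and 0.374. Those 2 genes and Col5a3 were the fibrillar genes whose interval lay below 1.

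All 4 autosomal type IV collagen genes had ratios under the median of all gene bodies, with a summed ratio of 0.966 (0.950 to 0.983). Col4a1 and Col4a2 encode the chains found in nearly all basement membranes, and are transcribed away from each other, with 2 bases between their starts. They had H3K14ac levels of 0.395 and 0.401 RPKM and KAT7 levels of 0.384 and 0.376, with ratios of 0.970 (0.936 to 1.01) and 0.937 (0.907 to 0.968). Col4a3 and Col4a4, chains of the kidney glomerular basement membrane, had H3K14ac levels of 0.374 and 0.391 and KAT7 levels of 0.371 and 0.379. Their ratios were 0.991 and 0.970. Within both pairs the ratio intervals overlapped.

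Laminin alpha chains, which carry the cell-binding domains, held both the highest ratio and one of the lowest. Lama5, the alpha chain of laminins of many mature basement membranes, had 0.338 RPKM H3K14ac and 0.401 KAT7. Its ratio of 1.19 (1.12 to 1.25) was the highest of the 49, at percentile 96.2 of its length band. Its H3K14ac level lay at percentile 6.38 of that band and its KAT7 level at percentile 54.4, so H3K14ac was the value that stood apart. Lama3, a chain of the laminin of epithelial anchoring, had 0.415 and 0.385, a ratio of 0.927 (0.905 to 0.949). Lama4, prominent in vessel walls, had 0.429 and 0.409, and its H3K14ac lay at percentile 98.1 of its band. Lama1, the alpha chain of early embryonic basement membrane, had 0.375 and 0.379, with a ratio of 1.01. Lama2, the muscle and nerve chain, was the longest of the 49 genes at 635658 bases and had 0.399 and 0.395, with a ratio of 0.990 (0.976 to 1.01).

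The beta chains spanned nearly the whole range of the set. Lamb1, the beta chain of most embryonic laminins, had 0.366 RPKM H3K14ac and 0.398 KAT7, a ratio of 1.09 (1.04 to 1.14). Lamb2, found at synapses and in the glomerulus, was the shortest of the 49 genes at 10669 bases, with 485 H3K14ac and 518 KAT7 reads. It had 0.321 and 0.362, a ratio of 1.13 (0.995 to 1.28). Lamb3, the partner of Lama3 in epithelial laminin, had 0.461 RPKM H3K14ac, the highest of the 49, and 0.398 KAT7. Its KAT7 level was thus the same as that of Lamb1, and its ratio was 0.863 (0.816 to 0.913), at percentile 0.131 of its band, with H3K14ac at percentile 99.2.

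Among gamma chains, Lamc1, part of most laminins, had 0.411 RPKM H3K14ac and 0.421 KAT7, the highest KAT7 level of the 49. Lamc3 had 0.355 and 0.350. Their ratios were 1.02 and 0.988. Lama3 and Lamb3 thus both had H3K14ac above 0.410 and more H3K14ac than KAT7. So did Lama4, the chain prominent in vessel walls, with 0.429 and 0.409, a ratio of 0.954 (0.925 to 0.984). Lamb1 had the reverse order with a smaller H3K14ac value. The Lama1 ratio, 1.01 (0.977 to 1.05), did not tell its KAT7 and H3K14ac levels apart. Lamc1, the gamma chain of the embryonic laminin with Lama1 and Lamb1, was high for both antibodies.

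All 24 other chains lay under the median ratio of all gene bodies. The lowest upper bounds of the ratio were those of Col7a1, Col22a1, Col23a1, Col26a1 and Col13a1. Col7a1, the chain of the anchoring fibrils that tie the epidermal basement membrane to the dermis, had 0.376 RPKM H3K14ac and 0.313 KAT7. Its ratio of 0.833 (0.774 to 0.896) was the lowest of the 49, and none of the 3808 gene bodies of 30000 to 100000 bases had a lower one. Col22a1, a collagen of tissue junctions such as muscle to tendon, had 0.367 and 0.329, a ratio of 0.895 (0.872 to 0.919). No gene body among the 605 of at least 200000 bases had a lower ratio. Both genes had KAT7 levels near the bottom of their length band, at percentiles 1.18 and 1.16, and H3K14ac at percentiles 41.6 and 8.10.

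The 4 transmembrane collagens had a summed ratio of 0.955 (0.942 to 0.967), and each lay under the median of its length band. Col23a1 had 0.369 RPKM H3K14ac and 0.343 KAT7, a ratio of 0.931 (0.909 to 0.952). Col13a1, a transmembrane collagen of the neuromuscular junction, had 0.343 and 0.321, a ratio of 0.936 (0.904 to 0.969). The 2 multiplexins, whose products carry heparan or chondroitin sulfate chains in basement membrane zones, were nearly alike: Col15a1 had 0.391 RPKM H3K14ac and 0.367 KAT7, and Col18a1 had 0.390 and 0.370. The pair was picked out after its values were seen. Col26a1 had 0.365 and 0.342, a ratio of 0.936 (0.906 to 0.968). The 5 type VI (beaded filament) genes all had ratios under the median of all gene bodies, with a summed ratio of 0.957 (0.940 to 0.974).

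At the other end of this class, the lower bounds were highest in Col8a1, Col28a1, Col12a1, Col19a1 and Col16a1. Col8a1, a short chain collagen of vessel walls and the cornea, had 0.380 RPKM H3K14ac and 0.391 KAT7, a ratio of 1.03 (0.995 to 1.06). Col28a1 had 0.404 and 0.409, and Col12a1, a fibril-associated collagen (FACIT) of tendon and bone surfaces, had 0.408 and 0.414. Col19a1 had 0.396 and 0.395 and Col16a1 had 0.388 and 0.393. None of these 5 had an interval above 1. The 8 FACIT genes ran from Col22a1 at 0.895 to Col9a2 at 1.02, so the shared family name did not go with a shared ratio.

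**Figure D2:**
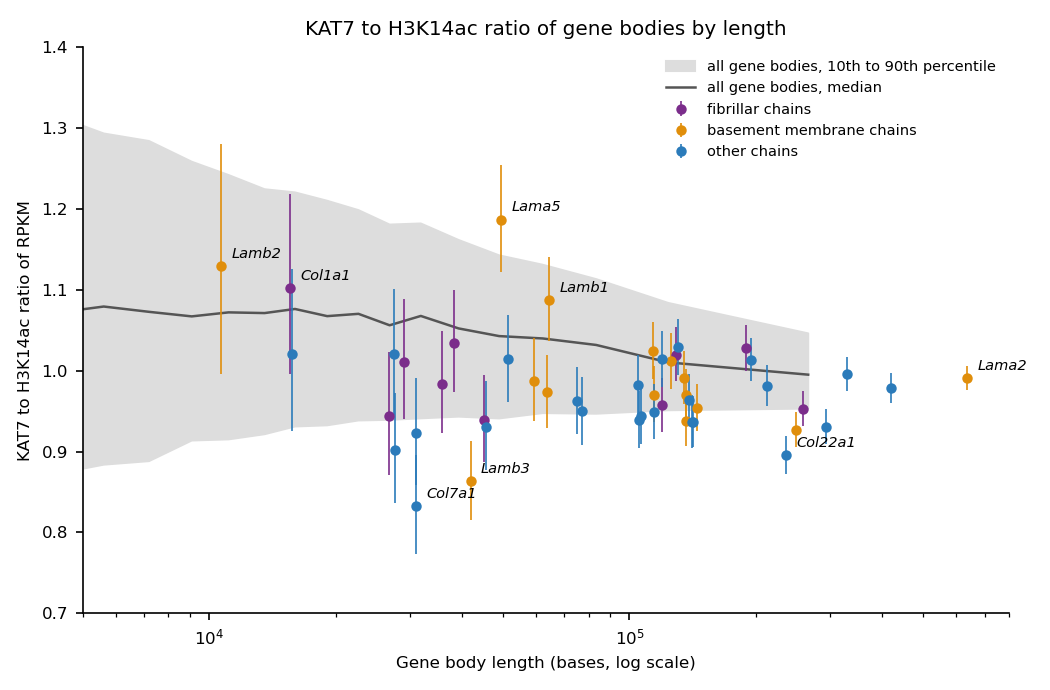
KAT7 to H3K14ac ratio (y axis) against gene body length (x axis, bases, log scale) for the 49 genes, coloured by class, with 95% counting intervals. The line is the median and the band the 10th to 90th percentile of all 15774 gene bodies in 20 length bins. Lama5 at 1.19 lies over the band. Col7a1 at 0.833, Lamb3 at 0.863 and Col22a1 at 0.895 have the lowest ratios of the several genes under it.

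Across the 49 genes Spearman's rho of length was 0.375 with H3K14ac, 0.220 with KAT7 and -0.148 with the ratio. Over the 15774 gene bodies it was -0.0213, -0.144 and -0.105. All of these values come from the same pair of merged columns, and they are given as descriptions.

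The 6 genes set apart were Col10a1, Col5a1, Col9a3, Col4a5, Col4a6 and Col6a1. Col10a1, the hypertrophic cartilage collagen, lies wholly inside Nt5dc1 and has no base of its own, and the table lists 0 reads for it. Col5a1 shares bases with a gene that has no symbol and Col9a3 with Tcfl5, and all their reads divided by the bases no other gene shares gave 0.382 RPKM H3K14ac and 0.368 KAT7 for Col5a1 and 0.433 and 0.418 for Col9a3. Col4a5 and Col4a6, a divergent pair on chromosome X, had 0.208 and 0.209 RPKM H3K14ac and 0.216 and 0.208 KAT7. These are near the medians of all 653 gene bodies on chromosome X, 0.201 and 0.209, and about as far under the autosomal medians as those. Their ratios were 1.04 (1.00 to 1.07) and 0.992 (0.963 to 1.02).

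Col6a1, a chain of the type VI collagen of beaded filaments, had 0.0724 RPKM H3K14ac and 0.0830 KAT7 from 177 and 192 reads over 17253 bases. Its neighbours Col6a2 and Pcbp3 had 0.379 and 0.395 RPKM H3K14ac. A single region of the pseudogene class covers all of Col6a1 and nearly all of Pcbp3 and had 0.393. Most of its 253041 bases lie in Pcbp3, a gene body of 200094 bases, so its level goes largely with that of Pcbp3. Inside Col6a1, 2 small elements held 22 of the H3K14ac and 37 of the KAT7 reads, 12.4% and 19.3% of its reads in 1.57% of its bases. The low body value of Col6a1 is therefore doubtful as a level, and what lowered the count was not tested.

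CpG islands at start sites are the regions where the table gives promoter values for both strands. An island held the start of 20 of 55 collagen and laminin genes (36.4%), against 7926 of 15774 gene bodies used (50.2%). It did so for 3 of 11 fibrillar (Col2a1, Col5a1 and Col27a1), 8 of 17 basement membrane and 9 of 27 other chains. Col4a1 and Col4a2 share 1 island, leaving 19. The start of 5 more genes lay 43 to 348 bases outside an island, among them Col9a2 (43), Col15a1 (236), Col19a1 (260) and Col18a1 (348). The next nearest, Col11a2, was 6954 bases away.

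In these 19 islands both values were under those of all 8899 islands that hold a start, H3K14ac more so. The summed H3K14ac level was 0.391 RPKM (0.366 to 0.417), against 0.471, and the summed KAT7 level 0.454 (0.427 to 0.483), against 0.494. The ratio was 1.16 (1.06 to 1.27), against 1.05. Single ratios lay over the median of all islands in 12 of 19, and in 4434 of all 8899. The summed ratio over start islands was thus above 1 and over gene bodies below it. It stood above the value of all islands, where that of bodies stood below the value of all bodies. Col27a1 alone gave 90 of the 922 H3K14ac and 129 of the 1015 KAT7 reads of the 19 islands. How far the summed ratio rests on that island was not tested. The median of the island ratios was 1.11, against 1.06 for all islands. The intervals of single islands were wide, from 18 to 90 H3K14ac reads each. Against the median of all islands, 1.06, the interval lay above in 1 of 19 (11.5% of all islands) and below in 0 (10.9% of all islands). Neither count is above the background, and single islands differ detectably from the median only where the difference is large at this depth.

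The 1 island was that of Col27a1, chr4:63213962-63216015, with 0.309 RPKM H3K14ac (0.249 to 0.380), 0.469 KAT7 (0.391 to 0.557) and a ratio of 1.51 (1.15 to 2.01). Its gene body ratio, 0.957, lay on the other side of 1. The highest island levels were those of Col16a1, 0.750 RPKM H3K14ac and 0.752 KAT7, and Col9a3, 0.675 and 0.751. Of the other chains, Col6a2 followed with 0.588 and 0.587 and Col25a1 with 0.443 and 0.544. Col26a1 was next by H3K14ac, with 0.342 and 0.370, and Col12a1 next by KAT7, with 0.332 and 0.517. Col23a1 had the lowest H3K14ac, 0.202, with KAT7 at 0.300.

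Among basement membrane islands, Lamc1 had 0.407 RPKM H3K14ac and 0.561 KAT7, and Lama5 0.489 and 0.559. Lama1 was the reverse, with 0.541 and 0.385. The shared Col4a1 and Col4a2 island, chr8:11312171-11313231, had 0.366 and 0.401, Lamb1 0.383 and 0.384, Lamc3 0.368 and 0.470 and Lama3 0.391 and 0.350. The ratio intervals of all 7 held the median of all islands. The summed ratio was 1.32 (1.08 to 1.61) in the 3 fibrillar islands, 1.07 (0.928 to 1.24) in the 7 basement membrane islands and 1.18 (1.02 to 1.36) in the 9 of other chains, and these intervals overlapped. Most of the reads of the fibrillar value came from Col27a1, with 90 of 178 H3K14ac and 129 of 222 KAT7 reads.

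Of the 5 islands just outside a start, Col18a1 had the lowest ratio, 0.493 (0.303 to 0.785), from 0.669 RPKM H3K14ac and 0.330 KAT7. Genes with an island had median gene body ratios of 0.983 (18 collagen and laminin genes) and 1.09 (7926 of all), and genes without one 0.970 (31) and 1.00 (7848).

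**Figure D3:**
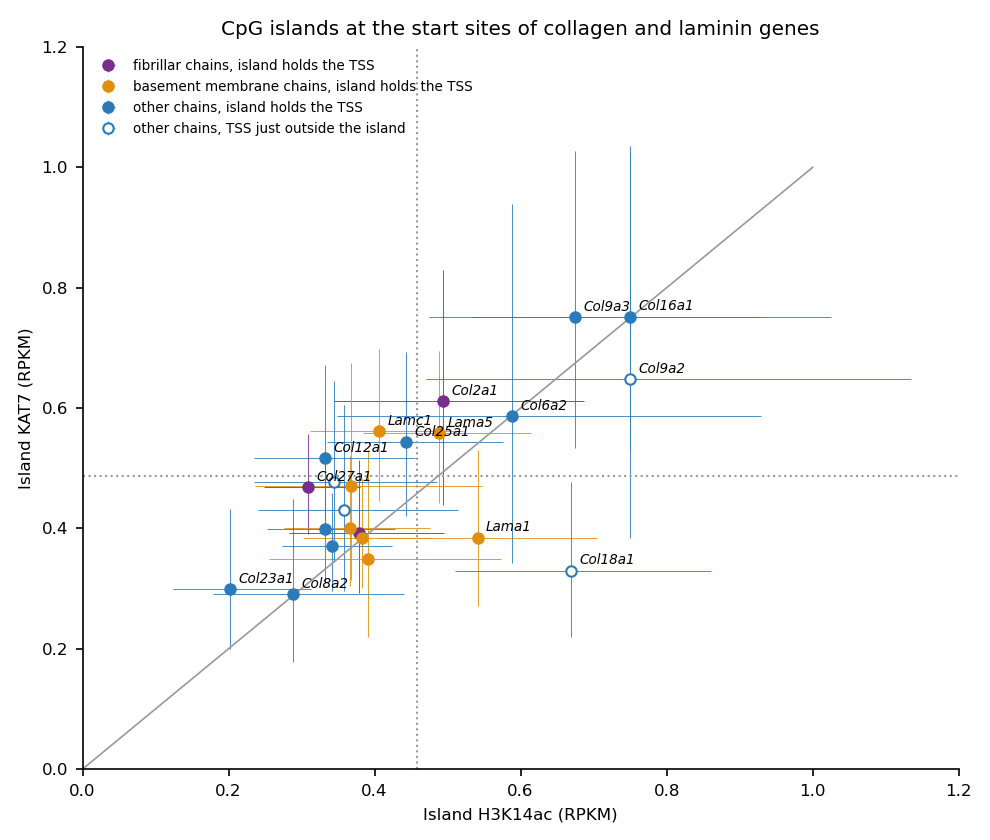
H3K14ac (x axis, RPKM) against KAT7 (y axis, RPKM) in the CpG islands at collagen and laminin start sites, coloured by class. Filled circles are the 19 islands that hold a start, open circles are islands just outside one, bars are 95% counting intervals, the diagonal is equal RPKM and dotted lines are medians of all islands. Names are left out in the dense part near 0.37 and 0.40 where they would overlap. Col16a1 and Col9a3 lie highest and Col18a1 lies far under the diagonal.

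The table's promoter windows and windows after the transcript end were compared for the 29 genes on the plus strand alone. Promoter windows, which share bases with the islands, had 0.352 RPKM H3K14ac (0.339 to 0.365), against 0.387 for all 9809 such windows, and 0.398 KAT7 (0.384 to 0.412), against 0.417. The summed ratio was 1.13 (1.07 to 1.19), against 1.08, so for promoters the interval held the value of all genes. The median over windows had the other direction, 1.06 against 1.08. Windows after the end had 0.418 H3K14ac (0.404 to 0.432), against 0.388, and 0.412 KAT7, the same as for all 9774 windows. Their ratio was 0.984 (0.938 to 1.03), against 1.06. H3K14ac was thus lower than in all genes before the start and higher after the end. The highest end window was that of Lamb2, with 0.649 and 0.667. A CpG island, chr9:108490681-108491320, lies inside that window and had 0.905 RPKM H3K14ac and 0.653 KAT7. It held 82 H3K14ac reads, against 184 in the whole window, which also enters the summed end values.

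The table also lists enhancer regions (Enh) and a class named IS, which the sources used here do not spell out. Inside 42 of the 49 gene bodies lay 279 of them, 58 Enh and 221 IS. Their H3K14ac level was 0.493 RPKM (0.480 to 0.506), as in all 37468 such regions inside gene bodies (0.491), and KAT7 was lower, 0.461 (0.448 to 0.474) against 0.501. The ratio was 0.936 (0.901 to 0.973), against 1.02. It was 0.896 (0.816 to 0.984) in fibrillar, 0.985 (0.922 to 1.05) in basement membrane and 0.918 (0.868 to 0.970) in other genes. The basement membrane value joins unlike kinds, 0.893 (0.816 to 0.978) in Enh and 1.10 (1.00 to 1.22) in IS regions. Enh and IS had 0.957 (0.843 to 1.09) and 0.826 (0.717 to 0.952) in fibrillar genes. In other genes they had 0.941 (0.869 to 1.02) and 0.896 (0.829 to 0.969). By distance from the start, the ratio was 0.930 (0.814 to 1.06) within 1000 bases, 1.11 (0.976 to 1.25) up to 10000 bases and 0.919 (0.880 to 0.959) beyond, where 227 of the 279 lie. The corresponding values of all regions were 0.977, 1.08 and 1.02.

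Elements of single genes varied widely. In Col5a3, an IS region of 221 bases at chr9:20793730-20793950 had 1.92 RPKM H3K14ac from 60 reads and 0.746 KAT7 from 22. This was the highest H3K14ac value of the 279. In Col7a1, 3 IS regions had 0.738 and 0.312, a ratio of 0.423 (0.230 to 0.745), and in Lamb3, 3 Enh regions had 0.683 and 0.498, a ratio of 0.728 (0.568 to 0.931). Col7a1 and Lamb3, both low in body ratio, thus had more H3K14ac than KAT7 in these elements too, which lie inside the bodies and cover some of the same bases. The 17 IS regions of Lama5 had 0.481 and 0.532, a ratio of 1.11 (0.893 to 1.37). At the start of Lamc1, an IS region of 303 bases had 0.724 and 1.23, a ratio of 1.70 (1.07 to 2.76).

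**Figure D4:**
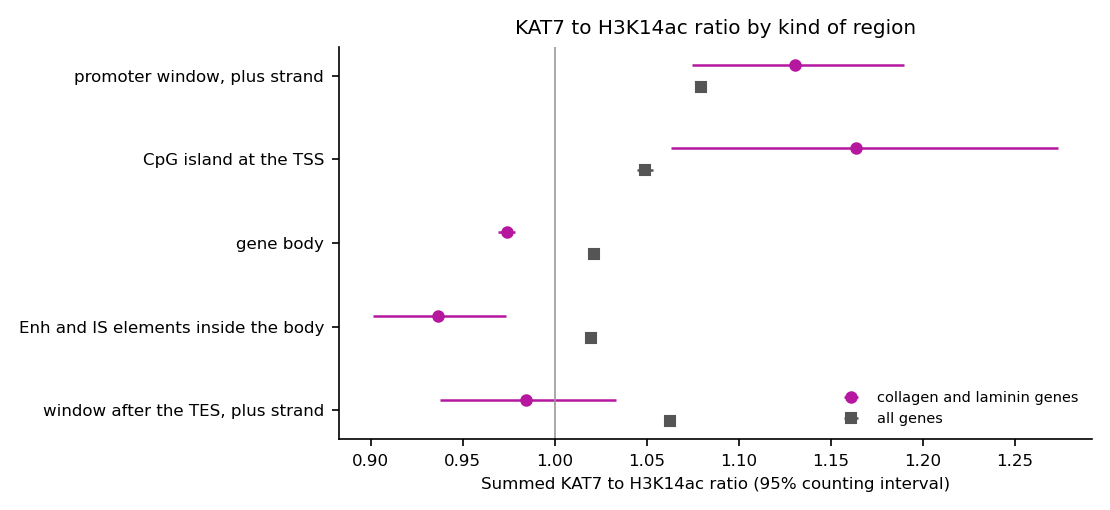
Summed KAT7 to H3K14ac ratio (x axis) by kind of region, for collagen and laminin genes (circles) and all genes (squares), with 95% counting intervals; the vertical line is 1. Circles lie right of the squares at promoters (1.13 against 1.08, though the medians, 1.06 and 1.08, have the other order) and islands (1.16 against 1.05) and left of them in gene bodies, elements and windows after the end.

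Genes that act with these chains, and marker genes of cell types, were set beside them by gene body ratio. Intervals are counted against the median of all gene bodies, where 19.2% of all gene bodies lie wholly above and 21.2% wholly below. Of 21 basement membrane partners and receptors, 2 had an interval above and 7 one below, 8 ratios lay over and 13 under, and the median ratio was 1.02. The heparan sulfate proteoglycan Agrn had a ratio of 1.17 (1.09 to 1.25) and the laminin receptor subunit Itga6 1.09 (1.05 to 1.14), and the collagen receptor subunit Itga11 had 0.913 (0.880 to 0.948) and the matrix protein Fbln2 0.927 (0.884 to 0.972). Of 21 collagen processing genes, 4 had an interval above and 4 one below, 11 ratios lay over and 10 under, and the median was 1.05. Mia3, which loads collagen for export, had 1.17 (1.10 to 1.24) and the procollagen proteinase Bmp1 1.16 (1.10 to 1.23), and the proteinases Tll2 and Adamts2 had 0.939 (0.907 to 0.972) and 0.951 (0.925 to 0.978). The processing list thus had about the median of all gene bodies, and the partner list a value between that and the 0.974 of the collagens and laminins.

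Of 12 neural stem and progenitor markers, 6 had an interval above and 1 one below, 8 ratios lay over and 4 under, and the median ratio was 1.23. Their median KAT7 level was 0.550 RPKM. Summed over the 12 genes, where long bodies weigh more, the ratio was 1.06 (1.04 to 1.08), against 1.02 over all gene bodies. The summed KAT7 level was 0.439 RPKM, against 0.396. Olig2, a transcription factor of ventral progenitors, had 1.62 (1.41 to 1.85) and Emx2, one of cortical progenitors, 1.41 (1.24 to 1.60). These are short bodies of 3128 and 6668 bases. Slc1a3 and Prom1, of 76684 and 108115 bases, had 1.04 (0.996 to 1.08) and 0.953 (0.918 to 0.989). Of 13 endothelial and mural markers, 0 had an interval above and 10 one below, all 13 ratios lay under, and the median was 0.935. Kdr had 0.899 (0.849 to 0.952) and Myh11 0.923 (0.887 to 0.960), and Flt1 and Vwf had 0.989 (0.959 to 1.02) and 0.987 (0.954 to 1.02). Of 14 fibroblast and meningeal markers, 5 had an interval above and 4 one below, 7 ratios lay over and 7 under, and the median was 1.04. There Foxd1 had 2.47 (1.82 to 3.37) and Zic1 2.10 (1.83 to 2.42), and Ptgds had 0.766 (0.622 to 0.943) and Twist2 0.914 (0.863 to 0.969).

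Of 6 microglial markers, 0 had an interval above and 3 one below, all 6 ratios lay under, and the median was 0.950. Cx3cr1 and Ptprc had 1.03 (0.946 to 1.13) and 0.987 (0.954 to 1.02), and Itgam and Csf1r had 0.892 (0.847 to 0.940) and 0.912 (0.844 to 0.985). Of 5 keratinocyte and epithelial markers, 0 had an interval above and 1 below, all 5 ratios lay under, and the median was 0.968. By expression class, the median ratio was 1.13 for all gene bodies marked Top, 1.05 for Other and 0.974 for Bottom. The median of the collagens and laminins, 0.974, was that of the Bottom genes, although 53 of 55 were marked Other. The sets differ in length, with medians of 113865 bases for the collagens and laminins, 18127 for Bottom and 17890.5 for Other. Over all gene bodies the median ratio was 1.01 from 100000 to 200000 bases and 0.992 beyond. Whether the match holds among genes of like length was not tested. Whether cells of another type or a low expression of these genes had a part in their ratio was not tested.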

How the data were processed

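ChIP-seq used an anti-KAT7 and an anti-H3K14ac antibody, per the labels' protocols. The submitters' processing notes name Bowtie2, SAMtools, Picard, deepTools, featureCounts and build mm10, without versions. The authors deposited read counts and RPKM for 240814 regions of 12 classes, in 1 merged column per antibody. The deposited RPKM equal the counts divided by region length and by 141734087 (H3K14ac) or 134111848 (KAT7) reads. The meaning of SC and gc in the column names is not given in the sources used here.

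Gene bodies were matched to symbols by Entrez ID (RefSeq, GRCm38.p6; 96.7% matched). Bodies on chromosome X, sharing bases with another body, under a mean of 0.1 RPKM or over 5 RPKM were left out of class values. The counts were summed per class, with exact Poisson and Clopper-Pearson binomial 95% intervals (Python 3.11.15, SciPy 1.17.1), and the interval code was checked on simulated counts. No count model was fitted, since there are no replicates. Named were every fibrillar and basement membrane chain with a body of its own (except 1 gene, which enters the counts and class values but is not reported here or drawn by name), and of the other chains the 5 highest and 5 lowest by bound of the body ratio, the 5 with the highest island level for either antibody and those with an island ratio interval off the median of islands. From each comparison list the 2 highest and 2 lowest by bound were named where the list allowed; other names were chosen after their values were seen. The members, classes and lists were chosen with earlier results of these data known. Alternatives covered the filters, the summary, the class borders, the confidence level and the reference value.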

Additional observations from a re-analysis of the deposited data

How the results depend on the processing

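No paired analysis was possible because each antibody has 1 merged column without replicates. Of 91 alternative values, 71 lay within the 95% counting interval of the reported value, or within 1.5 times a count. Medians of gene body levels moved under these: summed count over summed length gave 0.389 RPKM KAT7 for fibrillar chains, 0.398 H3K14ac and 0.390 KAT7 for basement membrane chains and 0.384 H3K14ac and 0.371 KAT7 for other chains. Keeping overlapping bodies gave 0.377 KAT7 for fibrillar chains, also over their own bases, and keeping chromosome X gave 0.391 H3K14ac for basement membrane chains. With multiplexins and type VII collagen moved to the basement membrane class, its medians were 0.391 H3K14ac and 0.381 KAT7. The median of the ratios of other chains was 0.956. Against a ratio of 1 in place of the median of all gene bodies, 3 genes had intervals above and 21 below. Medians over islands gave 0.401 KAT7 for basement membrane chains and 0.342 H3K14ac and 0.517 KAT7 for other chains. Elements of at most 160 bases gave 0.589 H3K14ac and 0.555 KAT7, and Enh elements alone 0.455 and 0.422. Where a value moved, the construction of the alternative changed which regions or weights entered. The own-base levels and the reference of the length band were chosen after seeing the data. Depth limits the islands and elements most, with 18 to 90 H3K14ac reads for each island.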
